A study of Mus musculus with 11 samples.

Results

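Of the 16755 genes listed for embryonic molar tooth germs, 9 keratin genes of oral and dental epithelium are described here, chosen by symbol alone: *Krt5*, *Krt14*, *Krt15*, *Krt17*, *Krt8*, *Krt18*, *Krt19*, *Krt13* and *Krt4*. All 9 were listed, and none was removed by a filter. RNA was sequenced from dissected maxillary molar tooth germs at E14.5, with n = 6 pooled per biological replicate, in 4 wild-type (*Cilk1*+/+), 4 *Cilk1*-/- and 3 *Cilk1*-/-;PCS1–MRCS1△/△ libraries, and the labels name the embryos as littermates. *Cilk1* encodes a kinase of primary cilia, and its null allele came from germline recombination with EIIa-Cre, so the deletion is not restricted to the tooth. The last genotype, called the compound mutant, lacks *Cilk1* and in addition the genomic interval from PCS1 to MRCS1, which holds enhancers of *Shh*. No library with the interval deletion alone was analysed here. A comparison of the compound mutant with *Cilk1*-/- therefore concerns the added deletion, and a comparison with wild type concerns both alleles together. All 3 compound mutant libraries belong to the second of 2 deposited sets, with 1 library each of the other genotypes, while the other 3 libraries of each of these form the first set, so the compound genotype and the set can hardly be told apart. The deposited values are on a log2 scale, probably log2(FPKM + 1) of a length-scaled level, with no counts, so the depth behind each value is unknown. Each library held 10 to 66 values below 0, which log2(value + 1) alone cannot give.

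Keratins are the intermediate filament proteins of epithelial cells, and each filament is built from a type I and a type II keratin. Basal cells of stratified epithelium, the dental epithelium included, carry KRT5 with KRT14 and, in part, KRT15, while KRT17 marks appendage epithelium and periderm. Simple and glandular epithelium carries KRT8 with KRT18 and KRT19, and the upper layers of the oral mucosa carry KRT4 with KRT13. Keratin RNA in a whole tooth germ therefore reports both how much epithelium of each kind a sample holds and how strongly it expresses these genes. In bulk RNA, fewer cells of a type and less RNA per cell cannot be told apart.

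The keratin genes lie in 2 clusters (positions from GENCODE vM21, GRCm38). On chromosome 11, on the minus strand, the type I genes follow each other as *Krt13* (chr11:100117327-100121566), *Krt15* (chr11:100131758-100135928), *Krt19* (chr11:100140810-100148665), *Krt14* (chr11:100203162-100207548) and *Krt17* (chr11:100256217-100261029). *Krt15* is 10191 bp from *Krt13* and 4881 bp from *Krt19*, with 0 protein-coding genes between these neighbours. On chromosome 15 lie the type II genes *Krt5* (chr15:101707070-101712898), *Krt4* (chr15:101918535-101924735) and *Krt8* (chr15:101996698-102004482), all on the minus strand. *Krt18* (chr15:102028180-102032027, plus strand) is the type I gene that sits apart from its cluster, 23697 bp from its partner *Krt8*.

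RefSeq promoter windows (GRCm38.p6), 250 bases before to 50 after a transcript start, were matched for 5 of the 9 genes. Windows of the basal *Krt5*, the simple pair *Krt8* and *Krt18*, and the suprabasal *Krt13* are shown. Values of these genes moved together or apart in the libraries below. The window of *Krt14* (chr11:100205981-100206280) and another window of *Krt13* (chr11:100120528-100120827) are not shown and held no match to the motifs named next. Both lie inside the gene positions given above, away from the upstream end. The sequence before the upstream end of *Krt14* was therefore not searched. Capitals mark a match on either strand to TATAAA or to the related ATAAAA, both TATA-like elements, or to GCCNNNGGC, the core motif of AP-2 factors.
Krt5 (chr15:101712856-101713155, minus strand): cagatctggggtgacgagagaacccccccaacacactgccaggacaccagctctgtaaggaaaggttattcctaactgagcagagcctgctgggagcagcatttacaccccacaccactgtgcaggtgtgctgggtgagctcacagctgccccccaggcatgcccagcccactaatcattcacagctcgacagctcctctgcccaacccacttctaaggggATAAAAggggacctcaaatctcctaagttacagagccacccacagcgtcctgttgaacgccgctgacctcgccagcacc
Krt8 (chr15:102004293-102004592, minus strand): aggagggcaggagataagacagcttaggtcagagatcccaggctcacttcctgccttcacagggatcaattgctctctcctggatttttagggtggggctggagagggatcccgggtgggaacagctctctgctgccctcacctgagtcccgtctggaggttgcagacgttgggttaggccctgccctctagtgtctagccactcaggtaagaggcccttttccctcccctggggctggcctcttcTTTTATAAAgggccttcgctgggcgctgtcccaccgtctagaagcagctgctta
Krt18 (chr15:102027966-102028265, plus strand): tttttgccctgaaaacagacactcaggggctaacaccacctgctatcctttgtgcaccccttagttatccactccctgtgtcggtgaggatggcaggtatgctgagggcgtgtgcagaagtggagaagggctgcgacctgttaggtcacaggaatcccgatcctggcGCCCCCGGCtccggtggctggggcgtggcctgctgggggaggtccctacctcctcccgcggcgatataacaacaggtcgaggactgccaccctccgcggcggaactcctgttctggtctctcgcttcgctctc
Krt13 (chr11:100121517-100121816, minus strand): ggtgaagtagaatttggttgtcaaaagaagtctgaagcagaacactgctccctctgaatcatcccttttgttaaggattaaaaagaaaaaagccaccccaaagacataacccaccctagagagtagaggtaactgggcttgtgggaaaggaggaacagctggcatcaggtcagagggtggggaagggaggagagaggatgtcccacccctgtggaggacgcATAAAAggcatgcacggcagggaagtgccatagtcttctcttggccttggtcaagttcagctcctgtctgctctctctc
In *Krt5* and *Krt13*, ATAAAA began 29 bases before the RefSeq start. In *Krt8*, TATAAA on the strand as printed overlapped matches of both TATA-like motifs on the opposite strand, at the start itself. In *Krt18* the match was GCCNNNGGC, 83 bases before the start. Of 32851 windows of this length, 18.5% held ATAAAA, 13.6% TATAAA and 16.6% GCCNNNGGC at any position on either strand. A match somewhere in the window is thus common among promoters. How common a match at these positions is was not counted.

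Before the results, the libraries need a description. *Cilk1*, listed under its older symbol *Ick*, lay between 3.45 and 3.60 on the log2 scale in wild type, between 2.72 and 2.86 in *Cilk1*-/- and between 2.60 and 2.67 in the compound mutant, so every mutant library was below every wild-type library. Its log2 fold change was −0.73 in *Cilk1*-/- (adjusted p = 0.000224) and −0.89 in the compound mutant (adjusted p = 6.22e-05, both limma), and the remaining RNA was not resolved by exon. Over all genes, compound mutant replicate 1 stood apart on the first principal component (48.5, the others from −11.2 to 6.6, 41.6% of the variance). Compound mutant replicate 3 was the farthest library on the second, at −28.9 (21.8%). Same-numbered wild-type and *Cilk1*-/- libraries deviated from their genotype means in opposite directions (correlations −0.89 to −0.74), and the mean of such a pair varied less between the 4 numbers than its difference did for 97.2% of genes. The same 55, 12, 17 and 0 genes were at exactly 0 in both libraries of replicates 1, 2, 3 and 4. These libraries were therefore not independent in the deposited values. Whether a replicate term was removed before deposit is not stated, and if it was, the SEs and p-values of fits without a replicate block, including the exact permutation tests, may be too small. *Shh*, whose enhancers the interval deletion removes, was 3.66, 4.02 and 6.51 in compound mutant replicates 1 to 3 and 4.18 to 5.66 in the other genotypes. The library labelled compound mutant replicate 3 thus had the highest *Shh* of all 11, against the direction of its label, which was used as given. Differences of the 9 keratins that involve the compound mutant, and calls of the other named genes, are given with and without its replicates 1 and 3. A gene was called at a Benjamini-Hochberg adjusted p under 0.05 over all genes (limma) and a fold change of at least 1.5.

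All 9 keratins had a value above 0 in every library, over a wide range of levels. On the linear, length-scaled level, wild-type means were highest for *Krt5* (433 ± 63.9, SD, n = 4) and *Krt17* (416 ± 64.3), whose libraries overlapped. *Krt14* followed at 260 ± 32.4 and *Krt15* at 74.7 ± 13.1, each with no library overlapping its neighbours in this order. *Krt18* (23.7 ± 3.7), *Krt13* (18.5 ± 12.5), *Krt19* (17.9 ± 1.9) and *Krt8* (16.0 ± 3.0) followed, each overlapping the next of these 4. *Krt4* was lowest at 5.17 ± 2.14, with no library overlapping *Krt8*. The labelled tissue was matched by its markers: the epithelial genes *Epcam* and *Cdh1* and the mesenchymal *Msx1* and *Barx1* were present in every library. Reads of near-identical copies may have been shared by the counting. Of the 50-base stretches of *Krt8* messenger RNA, 26.9% also occurred in *Krt8-ps*, and 14.4% of those of *Krt14* and 8.52% of those of *Krt5* occurred in other genes, mainly *Krt16* and *Krt6a*. For *Krt15* the share was 0.67%, and for *Krt19*, *Krt13* and *Krt4* it was 0%.

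**Figure D1:**
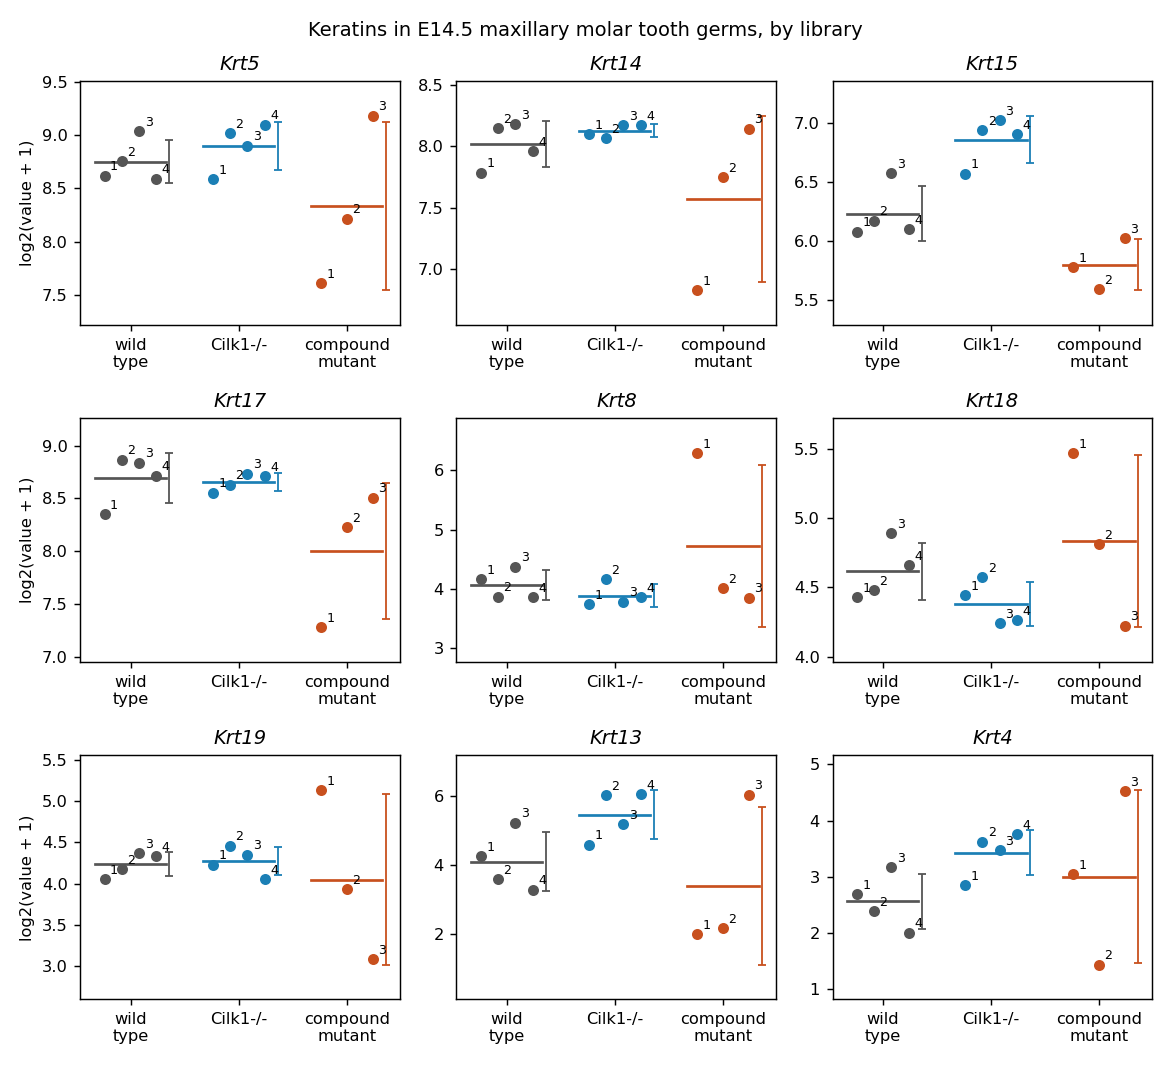
Log2(value + 1) of each keratin in each library, with the replicate number beside each point, a line for the genotype mean and a bar for ±1 SD. *Krt15* is lower in all 3 compound mutant libraries than in all others, whereas for *Krt8* one compound mutant library, replicate 1 at 6.29, lies far above the rest.

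With all 11 libraries, *Krt15* was the only one of the 9 keratins called in any comparison. It was higher in *Cilk1*-/- than in wild type and lower in the compound mutant than in *Cilk1*-/-. Both calls depended on the fit, and other keratins were called without compound mutant replicate 3, as given below. KRT15 is a type I keratin of basal cells, often used as a marker of epithelial progenitors. Its log2 values were 6.07, 6.17, 6.57 and 6.10 in wild-type replicates 1 to 4. In *Cilk1*-/- they were 6.57, 6.94, 7.02 and 6.90. In the compound mutant they were 5.78, 5.59 and 6.02. *Cilk1*-/- replicate 1 and wild-type replicate 3 overlapped narrowly, and every compound mutant library was below every library of both other genotypes. On the linear level, the mean was 74.7 in wild type, 116 ± 15.3 in *Cilk1*-/- and 54.9 ± 8.5 in the compound mutant.

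From wild type to *Cilk1*-/-, *Krt15* rose by a log2 fold change of 0.63 (SE 0.14, 1.55-fold, adjusted p = 0.0436, limma), in a comparison in which 0.370% of all genes were called. The increase was 0.49, 0.77, 0.45 and 0.81 between libraries of the same number. The call was close to its threshold: with the replicate number as a block it was lost (adjusted p = 0.0846, limma), as it was within the first deposited set of 3 against 3 libraries (log2 fold change 0.57, adjusted p = 0.116). It was kept in 5 of the 11 fits that left out 1 library each, where the fold change was 0.58 to 0.74 and the adjusted p 0.0261 to 0.139. The fits without *Cilk1*-/- replicate 2, 3 or 4 or wild-type replicate 1, 2 or 4 lost it.

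From *Cilk1*-/- to the compound mutant, *Krt15* fell, with a log2 fold change of −1.06 (SE 0.15, 0.48-fold, adjusted p = 0.00933, limma), where 0.543% of all genes were called. The call held in all 11 fits without 1 library (adjusted p 0.00519 to 0.0354), among them the fit without compound mutant replicate 1 (−1.05, adjusted p = 0.0199) and the fit without replicate 3 (−1.18). It also held with the replicate block (adjusted p = 0.0459). That block joins compound mutant libraries with same-numbered libraries of the first set, whose deviations were hardly related (correlations −0.12 to 0.04 with *Cilk1*-/-). Compound mutant calls kept or lost under the block, here and below, therefore do not bear on a pairing of these libraries. The *Krt15* call was lost when the deposited set was a term (−1.02, adjusted p = 0.165) and when only these 2 genotypes were fitted (adjusted p = 0.0866). Within the second set, where a single *Cilk1*-/- library stands against 3 and 0 of all genes were called, the difference was −1.11. Against wild type, the compound mutant had a log2 fold change of −0.43 (SE 0.15), with no overlap of libraries, and was not called (unadjusted p = 0.0143, adjusted p = 0.102, limma), nor was it without replicate 1 (−0.42) or replicate 3 (−0.55). In that comparison 18.0% of all genes had libraries that did not overlap.

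*Krt15* was also set against other epithelial genes. The reference was the mean log2 value of 7 general epithelial genes (*Epcam*, *Cdh1*, *Trp63*, *Esrp1*, *Esrp2*, *Grhl2* and *Rab25*), which lay at 4.11 to 4.27 in wild type, 4.05 to 4.40 in *Cilk1*-/- and 4.03 to 4.57 in the compound mutant. *Krt15* minus this reference was 1.86 to 2.30 in wild type, 2.50 to 2.70 in *Cilk1*-/- and 1.44 to 1.56 in the compound mutant, with no overlap between any of the 3 genotypes. In this measure 5.53% of all genes did not overlap between *Cilk1*-/- and wild type. The share was 6.00% between the compound mutant and wild type and 3.97% between the compound mutant and *Cilk1*-/-. Without the subtraction these shares were 20.9%, 18.0% and 17.0%, and *Krt15* overlapped between *Cilk1*-/- and wild type. The subtraction thus lowers the share over all genes, most of which are not in the reference. Relative to the reference, compound mutant replicate 1, the library that stood apart, had 1.44, close to replicate 3 at 1.45. The reference genes moved apart in replicate 1, where *Epcam* was the highest of all libraries (6.36, the others 5.28 to 5.85) and *Trp63* the lowest (4.02, the others 4.84 to 5.50). *Krt5*, *Krt14* and *Krt17* showed no such tight grouping. In the same measure, compound mutant *Krt5* ran from 3.28 to 4.61, *Krt14* from 2.50 to 3.71 and *Krt17* from 2.94 to 4.19, with replicate 1 the lowest of each.

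**Figure D2:**
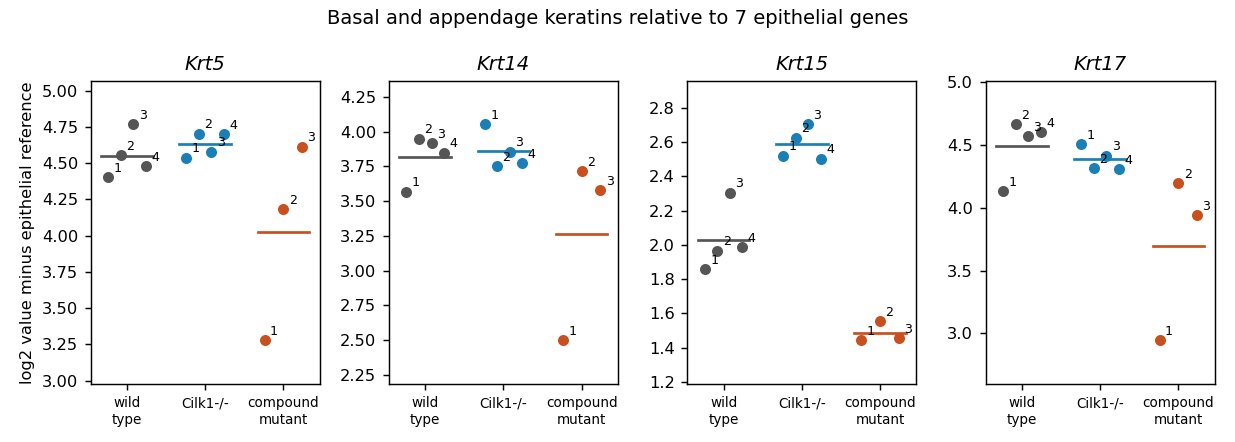
Log2 value of 4 keratins minus the mean log2 value of 7 epithelial reference genes, by library, with replicate numbers and a line for the mean. For *Krt15* the 3 genotypes do not overlap and the compound mutant lies at 1.44 to 1.56, whereas for the other 3 keratins compound mutant replicate 1 is the lowest library.

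*Krt5* and *Krt14*, the partner keratins of basal cells, were not called in any comparison with all libraries. *Krt5* had log2 values of 8.62, 8.76, 9.04 and 8.59 in wild type, 8.58, 9.02, 8.90 and 9.10 in *Cilk1*-/-, and 7.61, 8.22 and 9.18 in the compound mutant. The compound mutant thus held both the lowest and the highest library. *Krt14* had 7.79, 8.15, 8.18 and 7.96 in wild type, 8.10, 8.07, 8.17 and 8.17 in *Cilk1*-/-, and 6.83, 7.75 and 8.14 in the compound mutant. Here replicates 1 and 2 of the compound mutant were below every other library and replicate 3 was among them. Between *Cilk1*-/- and wild type the *Krt14* log2 fold change was 0.11 (95% interval −0.38 to 0.60), and that of *Krt5* was 0.15 (−0.45 to 0.75). Against *Cilk1*-/-, the compound mutant differed by −0.55 for *Krt14* (unadjusted p = 0.0425, adjusted p = 0.202, limma) and by −0.56 for *Krt5* (adjusted p = 0.274). Without compound mutant replicate 1 these became −0.18 and −0.20, neither called. Without replicate 3 they became −0.84 (adjusted p = 0.0333) and −0.99 (adjusted p = 0.0154), both called. Against wild type, the compound mutant differed by −0.44 for *Krt14* (adjusted p = 0.257) and by −0.41 for *Krt5* (adjusted p = 0.384), by −0.074 and −0.052 without replicate 1, and by −0.73 (adjusted p = 0.0573, not called) and −0.84 (adjusted p = 0.0325, called) without replicate 3.

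Between genotype means, the ratio of the partners moved less than either gene did in the compound mutant. The log2 ratio of *Krt5* to *Krt14* averaged 0.73 ± 0.13 (SD, n = 4) in wild type, 0.77 ± 0.22 in *Cilk1*-/- and 0.77 ± 0.28 (n = 3) in the compound mutant. In compound mutant replicate 1, where both genes were lowest, it was 0.78. No difference was detected in the 3 comparisons (exact permutation test, two-sided, p from 0.83 to 0.97, smallest possible 0.0286).

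*Krt17*, which marks appendage epithelium and periderm, had log2 values of 8.35, 8.87, 8.84 and 8.71 in wild type, 8.55, 8.63, 8.73 and 8.71 in *Cilk1*-/-, and 7.28, 8.23 and 8.51 in the compound mutant. Every compound mutant library was below every *Cilk1*-/- library, which held for 17.0% of all genes in one direction or the other. The difference from *Cilk1*-/- was −0.65 (SE 0.24, unadjusted p = 0.0212, adjusted p = 0.145, limma) and from wild type −0.69 (unadjusted p = 0.0165, adjusted p = 0.110), neither called. Without replicate 1 the values were −0.29 and −0.32, again not called, and without replicate 3 they were −0.90 (adjusted p = 0.0355) and −0.94 (adjusted p = 0.0361). Between *Cilk1*-/- and wild type *Krt17* differed by −0.03 (95% interval −0.53 to 0.46).

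The simple keratins were highest in compound mutant replicate 1, and no genotype difference was called with all libraries. *Krt8* had log2 values of 4.17, 3.87, 4.38 and 3.86 in wild type, 3.75, 4.16, 3.79 and 3.86 in *Cilk1*-/-, and 6.29, 4.01 and 3.85 in the compound mutant. On the linear level, replicate 1 stood at 77.3 and the other libraries at 12.4 to 19.8. *Krt18*, its partner, had 4.43, 4.48, 4.89 and 4.66 in wild type, 4.44, 4.57, 4.24 and 4.26 in *Cilk1*-/-, and 5.47, 4.81 and 4.22 in the compound mutant. Replicate 1 was again the highest library, by a smaller step than for *Krt8*. *Krt19*, a type I keratin without a fixed partner, had 4.06, 4.18, 4.37 and 4.33 in wild type, 4.23, 4.46, 4.35 and 4.06 in *Cilk1*-/-, and 5.13, 3.94 and 3.08 in the compound mutant. In *Krt19*, replicate 1 was the highest and replicate 3 the lowest of all 11 libraries.

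The compound mutant against wild type gave 0.65 for *Krt8* (95% interval −0.40 to 1.69), 0.22 for *Krt18* (−0.30 to 0.74) and −0.18 for *Krt19* (−0.97 to 0.60). Without replicate 1 these were −0.14, −0.10 and −0.72 (*Krt19*, unadjusted p = 0.00486, adjusted p = 0.0694, limma), so the sign of *Krt8* and *Krt18* turned with that library. Without replicate 3 they were 1.08, 0.52 and 0.30, none called. *Cilk1*-/- against wild type gave −0.18, −0.23 and 0.04. The compound mutant against *Cilk1*-/- gave 0.83 for *Krt8* (adjusted p = 0.314), 0.45 for *Krt18* (adjusted p = 0.272) and −0.22 for *Krt19* (adjusted p = 0.744). Without replicate 1 these were 0.042, 0.14 and −0.76 and none was called. Without replicate 3 they were 1.26, 0.76 and 0.26, of which *Krt18* was called (adjusted p = 0.0312, limma). The log2 ratio of *Krt8* to *Krt18* was −0.84 to −0.28 in the other 10 libraries and 0.84 in compound mutant replicate 1. No difference between genotypes was detected (exact permutation test, two-sided, p from 0.429 to 0.686).

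Markers of other epithelia moved with the simple keratins in that library. Of the 7 ciliated epithelium genes written down, 6 were listed (*Hydin* was not), and their summed linear level was 5.31 to 5.88 in wild type, 5.16 to 6.22 in *Cilk1*-/-, 6.48 to 7.06 in compound mutant replicates 2 and 3 and 28.0 in replicate 1. *Foxj1*, the regulator of motile cilia, had a log2 value of 3.71 there and 0.77 to 1.41 elsewhere. The 7 olfactory epithelium genes summed to 62.8 to 71.8 in the other 10 libraries and to 199 in replicate 1, where *Lhx2* was 4.94 against 0.04 to 0.94, *Ebf2* was 4.07 against 0.95 to 1.78 and *Stmn2* was 5.95 against 1.03 to 3.34. *Lhx2* was also higher in compound mutant replicates 2 and 3 (0.82 and 0.94) than in the 8 libraries of the other genotypes, and without replicate 1 it was called against wild type (0.59, adjusted p = 0.0394, limma) and against *Cilk1*-/- (0.64, adjusted p = 0.0439). With all libraries (1.94 and 1.99) and without replicate 3 (2.59 and 2.64) it was not called. *Omp*, the marker of mature olfactory neurons, was 1.76 there and at most 0.51 elsewhere. Of the Merkel cell genes, which mark another KRT8-positive cell of oral epithelium, *Atoh1* was not listed. *Sox2* was 5.36 in replicate 1 against 2.66 to 4.29, and *Isl1* was 1.97 against 0.30 to 1.21. The part of these cells in the keratin values was not tested.

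**Figure D3:**
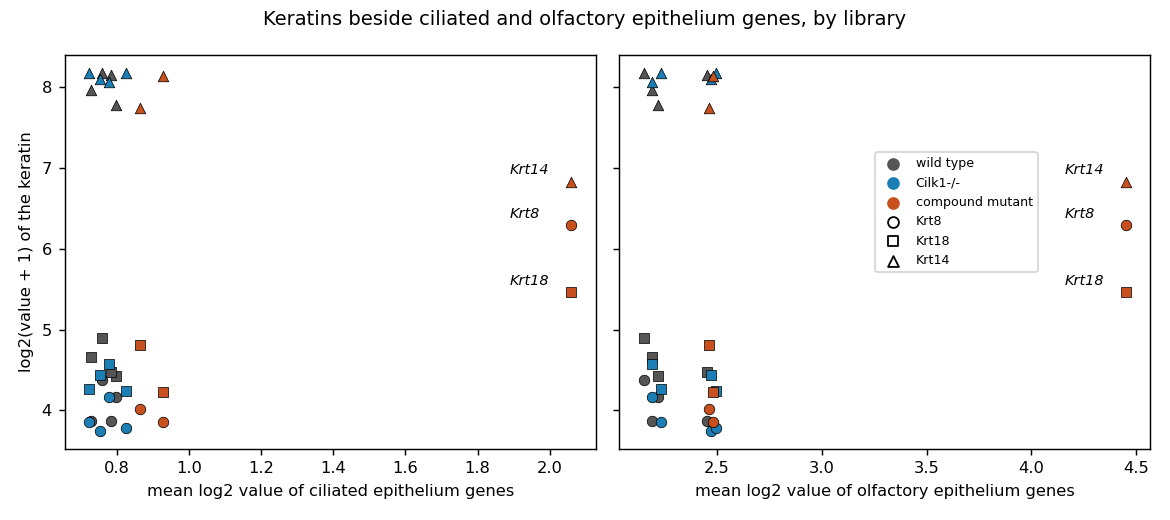
Log2(value + 1) of *Krt8* (circles), *Krt18* (squares) and *Krt14* (triangles) in each library against the mean log2 value of 6 ciliated (left) and 7 olfactory (right) epithelium genes, coloured by genotype. Compound mutant replicate 1 lies alone at 2.06 and 4.45, with *Krt8* and *Krt18* above and *Krt14* below their values in the other 10 libraries.

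The suprabasal keratins varied most, within every genotype. *Krt13* had log2 values of 4.24, 3.59, 5.22 and 3.28 in wild type, 4.58, 6.02, 5.17 and 6.04 in *Cilk1*-/-, and 1.99, 2.16 and 6.03 in the compound mutant. Its linear level ran from 3.0 to 64.9 over the 11 libraries. *Krt4*, its partner in the oral mucosa, had 2.69, 2.39, 3.17 and 2.0 in wild type, 2.85, 3.62, 3.47 and 3.76 in *Cilk1*-/-, and 3.04, 1.44 and 4.52 in the compound mutant. Both genes were high in compound mutant replicate 3 and low in replicate 2, and they parted in replicate 1.

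No difference in the suprabasal pair was called with all libraries. *Cilk1*-/- against wild type gave a log2 fold change of 1.37 for *Krt13* (95% interval −0.45 to 3.19, adjusted p = 0.379, limma) and 0.86 for *Krt4* (−0.32 to 2.04, adjusted p = 0.395). Compound mutant *Krt13* differed from *Cilk1*-/- by −2.06 (95% interval −4.02 to −0.10, unadjusted p = 0.0412, adjusted p = 0.198). Without replicate 3 that value was −3.38 and was called (adjusted p = 0.00752), and without replicate 1 it was −1.36 (adjusted p = 0.448). From wild type it differed by −0.69 (adjusted p = 0.651), by 0.0096 without replicate 1 and by −2.01 without replicate 3, which was called (adjusted p = 0.0477). Compound mutant *Krt4* differed from wild type by 0.44 (adjusted p = 0.659) and from *Cilk1*-/- by −0.42 (adjusted p = 0.697). These values were 0.42 and −0.45 without replicate 1 and −0.32 and −1.18 without replicate 3, none called. The log2 ratio of *Krt4* to *Krt13* was −2.49 to −1.01 in all libraries but compound mutant replicate 1, where it was 1.29, as *Krt13* stood at 3.0 and *Krt4* at 7.3 on the linear level. Against *Cilk1*-/-, that ratio was higher by 1.71 in the compound mutant (two-sided exact permutation p = 0.0286, the smallest this design allows, and 0.257 after Benjamini-Hochberg adjustment over 9 ratio tests). Without replicate 1 the difference was 0.86 (exact p = 0.133), in a test that with so few libraries could not pass 0.05 whatever the values. The ratios of compound mutant replicates 2 and 3 (−1.01 and −1.55) were above those of every *Cilk1*-/- library (−2.49 to −1.79).

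**Figure D4:**
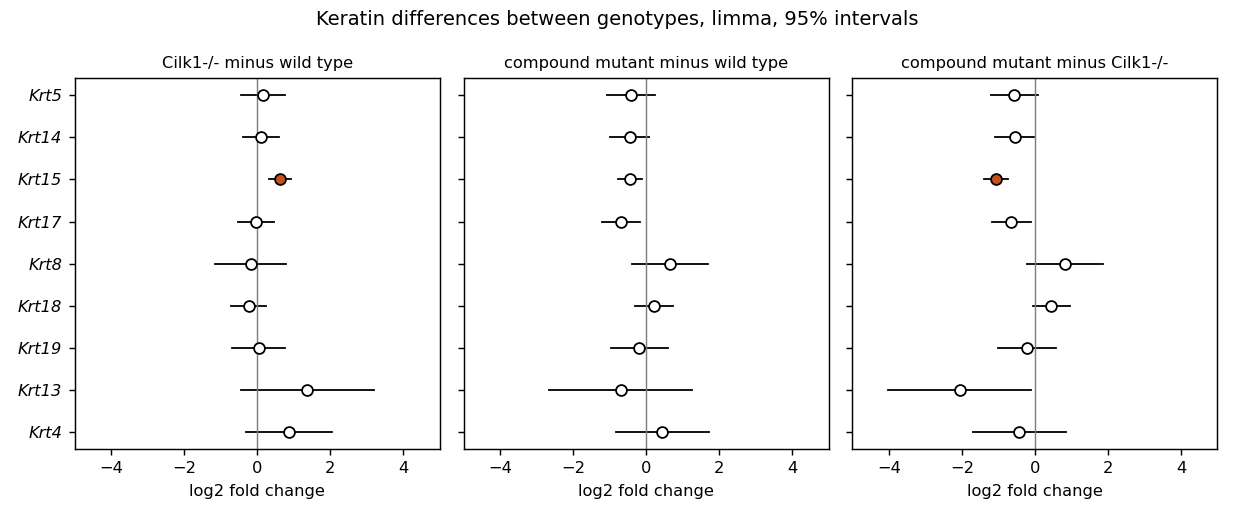
Log2 fold change of each keratin in the 3 comparisons with 95% intervals from limma, where filled points mark called genes. *Krt15* alone is called with all libraries, at 0.63 in *Cilk1*-/- against wild type and −1.06 in the compound mutant against *Cilk1*-/-, and the intervals of *Krt13* are the widest.

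Counted together, 1 of the 9 keratins was called and higher in *Cilk1*-/- than in wild type, and the median log2 fold change of the 9 was 0.11 beside 0.003 for all genes. At an unadjusted p under 0.05 it was again *Krt15* alone, beside 20.7% of all genes. In the compound mutant against wild type 0 of 9 were called by limma, beside 1.25% of all genes, and *Krt15* and *Krt17* had an unadjusted p under 0.05, beside 26.7%. The median was −0.41, with 6 of the 9 lower, and became −0.098 without replicate 1 and −0.55 without replicate 3. In the compound mutant against *Cilk1*-/- 1 was called, 4 had an unadjusted p under 0.05 beside 23.2% of all genes, and 7 of the 9 were lower, with a median of −0.55 that became −0.29 without replicate 1 and −0.90 without replicate 3. Without compound mutant replicate 3, the calls rose to 3 against wild type (*Krt5*, *Krt17* and *Krt13*, all lower) and to 6 against *Cilk1*-/-, of which *Krt18* was higher and *Krt5*, *Krt14*, *Krt15*, *Krt17* and *Krt13* were lower. In these fits 2.02% and 2.15% of all genes were called. Without replicate 1 the keratin calls stayed at 0 and 1, beside 1.02% and 0.501% of all genes. Non-overlapping libraries were found for 0 of the 9 in *Cilk1*-/- against wild type (20.9% of all genes). In the compound mutant they were found for *Krt15* against wild type (18.0% of all genes) and for *Krt15* and *Krt17* against *Cilk1*-/- (17.0%).

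Another 19 keratins were listed, 11 of them with a mean log2 value of at least 1, and 0 were called in any comparison (limma) with all libraries or without compound mutant replicate 1. Without replicate 3, 5 were called against wild type and 7 against *Cilk1*-/-, all lower, beside 2.02% and 2.15% of all genes. At an unadjusted p under 0.05 there were, with all libraries, 0 in *Cilk1*-/- against wild type, 2 in the compound mutant against wild type and 4 against *Cilk1*-/-, beside 20.7%, 26.7% and 23.2% of all genes. *Krt6a*, a wound- and appendage-related keratin and the most abundant of them, had log2 values of 4.86 to 5.58 in wild type, 5.31 to 5.82 in *Cilk1*-/-, and 3.55, 3.82 and 5.64 in the compound mutant, where replicates 1 and 2 were low and replicate 3 was not, as for *Krt13*. Its difference between the compound mutant and *Cilk1*-/- was −1.26 (adjusted p = 0.110), −0.87 without replicate 1 and −1.91 without replicate 3, where it was called (adjusted p = 0.00298). *Krt1* and *Krt10*, the pair of keratinizing suprabasal layers, were highest in compound mutant replicate 3 (4.63 and 4.30) and lowest in its replicate 1 (1.55 and 2.37). *Krt16* was 2.50 in replicate 3 and at most 1.97 elsewhere. *Krt7*, a simple keratin of ductal epithelium, was 3.86 in compound mutant replicate 1, 2.43 and 3.10 in the others and 2.33 to 2.84 in the 8 remaining libraries. *Krt23* was 2.94 and 2.70 in compound mutant replicates 1 and 3 and 0.77 to 1.67 in all other libraries, and its difference from wild type was 1.18 (adjusted p = 0.0598), 0.87 without replicate 1 and 0.99 without replicate 3, neither called. *Krt6b*, *Krt75*, *Krt79* and *Krt80* had a highest value in compound mutant replicate 3 or, for *Krt75*, in *Cilk1*-/- replicate 3. *Krt73* was listed at 0 in wild-type and *Cilk1*-/- replicate 1 and was 0.58 to 2.67 elsewhere.

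**Figure D5:**
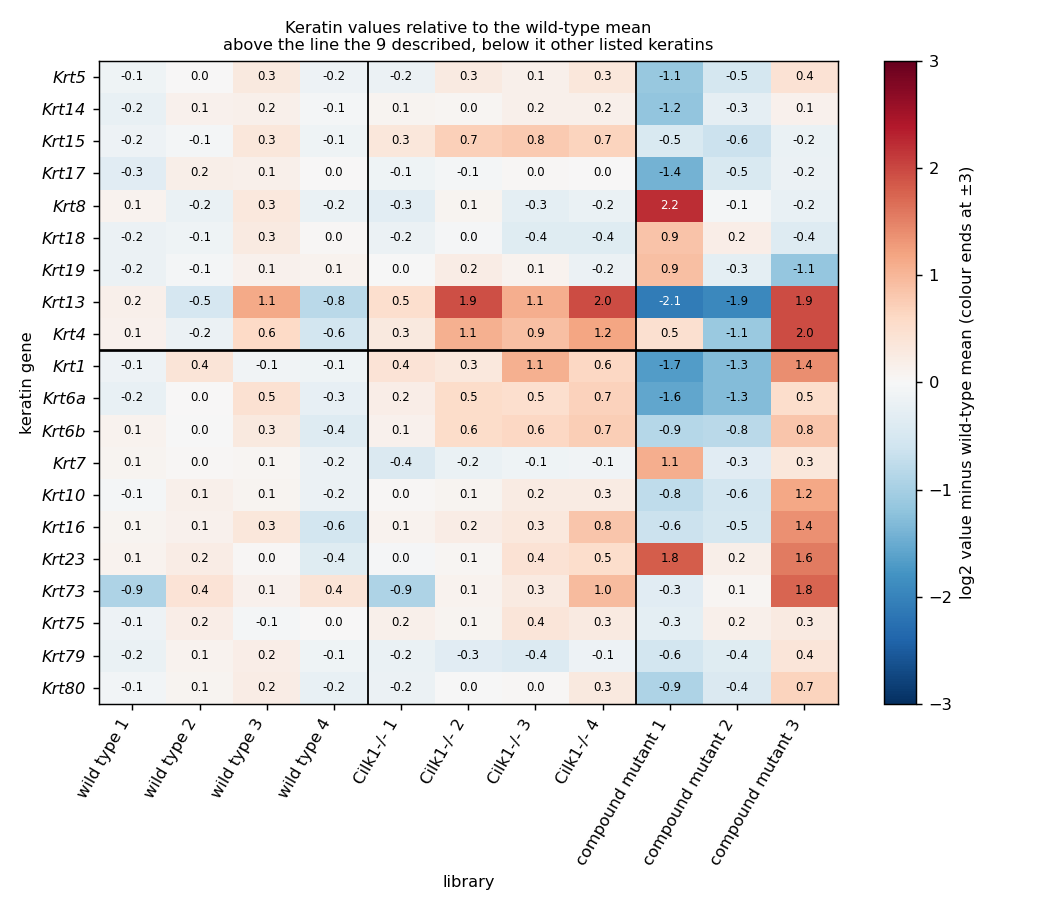
Log2 value of each keratin minus its wild-type mean, for the 9 keratins and the 11 other keratins with a mean of at least 1, in the 11 libraries. Within the compound mutant, replicate 1 is low in basal and high in simple keratins, replicate 3 is high in suprabasal keratins, and *Krt15* is below the wild-type mean in all 3.

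Genes that anchor keratin filaments were followed next. Desmosomes tie keratin filaments of neighbouring cells together, and of 12 desmosome genes 0 were called in any comparison (limma) with all libraries. In the order of comparisons above, 0, 2 and 2 had an unadjusted p under 0.05, beside the same 20.7%, 26.7% and 23.2% of all genes. Against wild type, 0 were called without compound mutant replicate 1, beside 1.02% of all genes. Without replicate 3, 4 were called (*Dsp*, *Pkp1*, *Dsg3* and *Dsc3*, all lower), beside 2.02%. In the compound mutant against *Cilk1*-/- 11 of the 12 were lower, with a median of −0.15, and the lowest was *Dsg3*, a desmoglein of basal layers, at −0.83 (adjusted p = 0.0753). Without replicate 1 the list median was −0.026 and *Dsg3* was at −0.56, with 0 of the 12 called, and without replicate 3 they were −0.42 and −1.18, with 4 called, *Dsg3* among them, beside 2.15% of all genes. Hemidesmosomes tie KRT5 and KRT14 filaments to the basement membrane. Of 8 such genes, 7 were lower in the compound mutant than in wild type and 7 than in *Cilk1*-/-, with medians of −0.20 and −0.18. Without replicate 1 these medians were −0.12 and −0.081, with 0 of the 8 called in either comparison. Without replicate 3 they were −0.41 and −0.35, with 3 called lower against wild type (*Dst*, *Lama3* and *Lamb3*) and 3 against *Cilk1*-/-. These calls stood beside 2.02% and 2.15% of all genes. With all libraries, 1, 4 and 2 of the 8 had an unadjusted p under 0.05 (limma) in the order of comparisons above, beside 20.7%, 26.7% and 23.2%. *Lama3*, a laminin chain of the basement membrane, was called lower against *Cilk1*-/- (−0.62, adjusted p = 0.0270, limma), with 2.44 to 2.71 there and 1.73, 2.01 and 2.30 in the compound mutant. A replicate block ended that call (adjusted p = 0.140), and it was kept in 6 of the 11 fits without 1 library. Without replicate 1 it was not called (−0.48), and without replicate 3 it was (−0.76).

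Factors known to act on keratin genes were followed as well. Of *Trp63*, *Tfap2a*, *Tfap2c*, *Klf5*, *Klf4*, *Grhl3*, *Sp6* and *Ovol1*, 0 were called in any comparison (limma) with all libraries, and 1, 2 and 0 had an unadjusted p under 0.05, again beside 20.7%, 26.7% and 23.2% of all genes. *Trp63*, the master regulator of stratified epithelium, was 4.84 to 5.14 in wild type and 5.26 to 5.41 in *Cilk1*-/-. In the compound mutant it was 4.02, 4.90 and 5.50, so *Trp63* was lowest in the replicate in which *Krt5* and *Krt14* were lowest. Its difference between the compound mutant and *Cilk1*-/- was −0.53 (adjusted p = 0.246), −0.13 without replicate 1 and −0.87 without replicate 3, where it was called (adjusted p = 0.0222, limma). *Klf5* differed from wild type by 0.37 in each mutant (adjusted p = 0.196 and 0.181), and for the compound mutant by 0.23 without replicate 1 and 0.33 without replicate 3.

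Other tissue lists put the keratins in context. Of the 7 dental epithelium genes, *Sostdc1*, a BMP and WNT antagonist around the tooth germ, was called lower in the compound mutant than in wild type (−1.31, adjusted p = 0.00622, limma), and it was −0.74 in *Cilk1*-/- (adjusted p = 0.0545). Their summed level was 302 to 350 in wild type, 252 to 324 in *Cilk1*-/-, and 115, 226 and 364 in compound mutant replicates 1, 2 and 3. Without replicate 1 the *Sostdc1* difference from wild type was −1.03 and without replicate 3 −1.42, both called. That call held in all 11 fits without 1 library, but in only 6 of the 9 other alternatives. Replicate 3 was high in *Shh*, a signal of the enamel knot, as well as in *Krt5*, *Krt13* and *Krt4*, and replicate 1 was low in dental epithelium genes as well as in *Krt5*, *Krt14* and *Krt17*. Among 6 listed oral keratinization genes (*Sprr1b*, *Ivl* and *Flg* were not listed) 0 were called with all libraries or without compound mutant replicate 1. Without replicate 3 of the compound mutant 1 was called against wild type and 3 against *Cilk1*-/-, beside 2.02% and 2.15% of all genes. *Krtdap* was 2.47, 3.36 and 4.48 and *Sprr3* 0.16, 0.12 and 2.33 in compound mutant replicates 1, 2 and 3. *Sprr1a* went another way, with 2.90, 0.85 and 2.41 there and 0.70 to 1.74 in the other genotypes. The 6 periderm genes, the 9 mesenchyme genes and the 5 endothelium genes had 0 called members in each comparison with all libraries. The mean log2 values of periderm genes ran from 2.93 to 3.16 over all libraries. Without compound mutant replicate 3, the mesenchymal *Barx1* was called lower against wild type (−0.65, adjusted p = 0.0442, limma). In that setting 1 mesenchyme gene was also called against *Cilk1*-/-, beside 2.02% and 2.15% of all genes in these 2 fits. Of the 3 listed Merkel cell genes, *Isl1* was called higher in the compound mutant than in wild type (0.95, adjusted p = 0.0190, limma) and lost that call when blocked by replicate number (adjusted p = 0.0971). It was called without replicate 1 (0.68) and without replicate 3 (1.05). *Sox2* and *Piezo2*, also of that list, were not called, at 0.19 and −0.14 with all libraries and −0.44 and −0.30 without replicate 1. Without replicate 3 they were 0.91 and −0.0095, again not called. Of 8 skeletal muscle genes, *Actc1*, *Acta1* and *Myh3* were called lower in the compound mutant than in *Cilk1*-/- (−2.35, −1.71 and −1.52), while a replicate block left none of the 3 called (adjusted p 0.181 to 0.218). Without replicate 1 *Actc1* alone of the 3 was called (−2.28), and without replicate 3 all 3 were. The summed muscle level was 9.63 to 31.6 in wild type, 20.5 to 56.6 in *Cilk1*-/- and 7.48 to 8.83 in the compound mutant, in the order of the *Krt15* means (*Cilk1*-/- highest, compound mutant lowest). The part of tissue composition in the *Krt15* difference was not tested.

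The genes whose pattern was most like a keratin of each class were found among 13027 genes with a mean log2 value of at least 1, by Pearson's r over the 11 libraries, as a description. For *Krt14* they were *Serpinb5*, *Trim29*, *Lgals7*, *Krt17* and *Pkp3* (r from 0.97 to 0.98), and without compound mutant replicate 1 their r was 0.82 to 0.92. For *Krt8* they were *Wfdc2*, *Syt11*, *Ccdc40*, *Actr3b* and *Sox21* (each 0.98), which fell to 0.68 to 0.83 without that library. For *Krt13* they were *B2m*, *Acp5*, *Krt6b*, *Cyp2t4* and *Emp2* (0.97 to 0.98), and these stayed at 0.96 to 0.99 without it. Likeness to *Krt8* thus rested in part on compound mutant replicate 1, whereas likeness to *Krt13* did not. Among the members themselves, *Krt5* and *Krt13* had r of 0.91 with all 11 libraries and 0.92 without replicate 1. *Krt13* and *Krt4* had 0.80 and 0.96, and *Krt14* and *Krt8* had −0.91 and −0.22. All these values share libraries and the genotype means, and the same-numbered libraries are not independent.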

How the data were processed

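RNA from dissected maxillary molar tooth germs was sequenced by the authors as poly-A libraries on an Illumina platform. Per the labels and methods, reads were mapped to mm10 and counted with featureCounts 1.5.0-p3 (HISAT2 2.0.5 is named in the submitters' processing notes), and FPKM values were calculated from counts and gene length. The deposited values are on a log2 scale, probably log2(value + 1) of FPKM. The log step is not stated, nor any later adjustment, although some values were below 0. Counts were not used here, so the count model of the methods was replaced by limma 3.58.1 (R 4.3.3), whose moderated test was run with a mean-variance trend and robust prior on 1 fit of 3 genotypes without covariates, adjusted by Benjamini-Hochberg over 16755 genes. Turned back to the linear scale, the libraries summed to between 339971 and 364616, and 0 columns of the table were left unmapped. A fold change on this scale understates the change of low genes. The labels give biological replicates of pooled germs.

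The keratins were listed by symbol, without a rule on their values. They, the 13 gene lists and the alternatives were chosen with earlier results of these data known. Named genes were the 9 keratins, list genes that were called or had the largest differences, other keratins with a mean of at least 1 or called, and the 5 genes most like *Krt14*, *Krt8* and *Krt13*. Partner ratios were compared with exact two-sided permutation tests. The alternatives were the replicate block, the 2 genotypes alone, the deposited set as a term or on its own, a plain moderated test, only genes with a log2 mean of 1 or more, a pseudocount of 0.1, median centring, quantile normalization, other thresholds and leaving out each library. The same alternatives for the other genes called, and the values of list genes and other keratins without compound mutant replicate 1 or 3, were added after seeing the data. A few genes of the lists are not reported here and were left out of the list counts and levels. The fit was tested on simulated data. Plots were drawn with Python 3.11.15 and matplotlib 3.10.9.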

Additional observations from a re-analysis of the deposited data

How the results depend on the processing

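The calls of *Krt15* depended on the fit more than its direction, which was the same in every alternative. With the replicate block, 0 keratins were called in *Cilk1*-/- against wild type, as with the deposited set as a term, within the set and with median centring (adjusted p of *Krt15* 0.0846, 0.0818, 0.116 and 0.0511, limma). In the compound mutant against *Cilk1*-/-, 0 were called when only these 2 genotypes were fitted, with the set as a term and within the set. The same-numbered libraries were checked for pairing. The correlations of their deviations from the genotype means were −0.74, −0.89, −0.85 and −0.79 between wild type and *Cilk1*-/-, and between −0.12 and 0.26 for the pairs with the compound mutant, so the numbers were not taken as pairs from shared deviations. The negative values show that same-numbered libraries depend on each other, and the p-values without a block may be too small. The replicate block lowered the called genes from 62 to 4, from 209 to 26 and from 91 to 2 in the order *Cilk1*-/- against wild type, compound mutant against wild type and compound mutant against *Cilk1*-/-. In that order, they were 130, 34 and 1 with only the 2 genotypes fitted, 37, 18 and 1 with the set as a term, 38, 0 and 0 within the set, 123, 547 and 294 with a pseudocount of 0.1, and 409, 1102 and 558 with no fold threshold. With an adjusted p under 0.1 the counts were 91, 325 and 172. Leaving out 1 library gave 15 to 95, 80 to 671 and 36 to 360 called genes, and 0 to 1, 0 to 3 and 1 to 6 called keratins. The highest keratin counts came without compound mutant replicate 3, and the lowest count of 0 in the first comparison came without wild-type replicate 1, 2 or 4 or *Cilk1*-/- replicate 2, 3 or 4. The cause was not tested.

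Signs turned in values that were not called with all 11 libraries, of which *Krt13* in the compound mutant against wild type was called without compound mutant replicate 3. Leaving out 1 library, *Krt17* ran from −0.15 to 0.0239 and *Krt19* from −0.0214 to 0.11 in *Cilk1*-/- against wild type. In the compound mutant against wild type the ranges were −0.14 to 1.08 for *Krt8*, −0.10 to 0.52 for *Krt18*, −0.72 to 0.30 for *Krt19*, −2.01 to 0.0096 for *Krt13* and −0.32 to 1.22 for *Krt4*. *Krt13* was 0.11 within the second set, where a single wild-type library stands against 3. Against *Cilk1*-/- they were −0.76 to 0.26 for *Krt19* and −1.18 to 0.36 for *Krt4*. In the usual order of comparisons, the log2 ratio of *Krt5* to *Krt14* ran from −0.0195 to 0.14, from −0.11 to 0.18 and from −0.15 to 0.14, and that of *Krt8* to *Krt18* from −0.0350 to 0.15, from −0.0429 to 0.79 and from −0.10 to 0.74. Paired by number, the *Krt5* to *Krt14* ratio of the compound mutant differed by −0.0022 from wild type and by 0.042 from *Cilk1*-/-. The *Krt4* to *Krt13* ratio against *Cilk1*-/- ran from 0.86 to 2.28 when 1 library of either group was left out (exact p 0.0667 to 0.133), except that it was 1.63 both without *Cilk1*-/- replicate 4 and in the paired test (exact p 0.25 when paired). With so few libraries, none of these exact tests could pass the p threshold used above, whatever the values. Their p-values therefore decide nothing about this ratio, whose difference stayed above 0. Of the alternative values of single keratins, 507 kept direction and side of the threshold, 12 turned, 13 lost a call and 8 gained one. The depth is unknown, so no limit of detection can be given for the low values of *Krt4* and *Krt13*.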
